A study of Mus musculus with 6 samples.

Results

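NF-kB, TNF and acute phase genes were followed across 6 expression arrays of TUBO cells, as a set of 40 genes picked by gene symbol: the NF-kB subunits, their inhibitors, genes of TNF and adaptor signalling, cytokines, the transcription factors and feedback inhibitor of the interleukin-6 axis, and acute phase proteins. Chemokines were left out. Of these 40 genes, among 16561 named genes on the array, 35 had a probe, and 27 were bright enough to be tested, among 8961 genes tested in all. TUBO is a mouse mammary carcinoma line derived from a tumour of a BALB-neuT female, and all 6 arrays hold total RNA of this single line grown as an adherent layer. By title and growth protocol, the 3 TMA arrays stand for mammosphere medium, which is DMEM-F12 without serum to which BSA (0.4%), insulin (5 μg/ml) and both EGF and bFGF (20 ng/ml each) were added. The 3 TDA arrays stand by the same labels for DMEM that holds 20% fetal calf serum. Since the source names give each group the other medium, groups are called by their titles and no direction is tied to a medium here. The titles number the replicates 1 to 3 in each group, but no label mentions independent cultures, and the spread behind the p-values, that among these 6 arrays, may be technical. All arrays lay on 1 chip, with TMA and TDA in separate positions, so position and group cannot be told apart.

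NF-kB is a family of dimeric transcription factors that inhibitor proteins of the IkB family hold in the cytoplasm. Signals from TNF, interleukin-1 or Toll-like receptors lead to the destruction of these inhibitors, and the freed dimers then switch on inflammatory genes together with their own brakes, among them Nfkbia and Tnfaip3. Cytokines of the interleukin-6 family, including Lif, act through Stat3, which induces the feedback inhibitor Socs3 and, with C/EBP factors, acute phase genes. In the mammary gland this pathway is known above all from involution, when Lif and Stat3 drive the loss of milk-producing cells.

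The promoter sequences of 4 members are shown because they hold the letters by which NF-kB or AP-1 sites are usually recognised, next to genes that behaved differently on the arrays: Nfkbia rose, Nfkbie and Tnip1 did not pass the test, and Lif was high on a single array. Each is the stretch from 250 bases before an annotated start up to the edge of the gene, from RefSeq on GRCm38.p6, 5′ to 3′ in the direction of the gene. For Tnip1 this is 234 bases, since another transcript begins upstream. Capitals mark matches to the motifs searched.
Nfkbia, chr12:55492648-55492897, minus strand: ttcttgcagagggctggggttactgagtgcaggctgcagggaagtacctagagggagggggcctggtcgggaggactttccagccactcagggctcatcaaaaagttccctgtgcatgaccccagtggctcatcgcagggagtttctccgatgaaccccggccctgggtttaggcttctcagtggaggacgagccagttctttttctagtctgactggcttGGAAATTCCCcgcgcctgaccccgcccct
Nfkbie, chr17:45555450-45555699, plus strand: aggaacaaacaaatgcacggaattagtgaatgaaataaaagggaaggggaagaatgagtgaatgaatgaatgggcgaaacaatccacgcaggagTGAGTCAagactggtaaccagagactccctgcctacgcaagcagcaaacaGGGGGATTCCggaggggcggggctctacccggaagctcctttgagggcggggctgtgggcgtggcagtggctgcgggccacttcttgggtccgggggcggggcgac
Tnip1, chr11:54962957-54963190, minus strand: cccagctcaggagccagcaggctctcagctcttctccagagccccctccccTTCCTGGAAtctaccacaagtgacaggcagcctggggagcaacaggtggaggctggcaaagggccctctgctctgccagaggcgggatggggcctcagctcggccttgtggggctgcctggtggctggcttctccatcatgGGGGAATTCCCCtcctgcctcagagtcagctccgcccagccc
Lif, chr11:4257318-4257567, plus strand: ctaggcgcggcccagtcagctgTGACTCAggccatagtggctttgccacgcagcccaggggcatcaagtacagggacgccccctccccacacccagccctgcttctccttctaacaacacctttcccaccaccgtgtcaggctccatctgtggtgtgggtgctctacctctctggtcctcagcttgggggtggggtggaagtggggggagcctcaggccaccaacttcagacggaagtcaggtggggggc

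The capitals are an NF-kB type match in Nfkbia, beginning 29 bases before the start, an NF-kB and an AP-1 type match in Nfkbie, 106 and 156 bases before it, and an AP-1 type match in Lif, 228 bases before it. In Tnip1 a STAT type match begins 199 bases before the start, and overlapping NF-kB type matches on both strands begin 58 and 56 bases before it. The NF-kB type was GGGA or GGGG, then any 2 bases, then TTCC, the STAT type TTCNNNGAA, the AP-1 type TGANTCA and the C/EBP type TTGCNNCAA, each searched on both strands in windows from 250 bases before to 50 bases after a start. Of 31 members with a window, 8, or 25.8%, held an NF-kB type match, against 3.26% of all 27025 genes with one, and these 8 were Il6, Nfkb2, Nfkbia, Nfkbie, Rel, Tnfaip3, Tnip1 and Traf3. STAT and AP-1 type letters each stood in 7 members, 22.6%, against 9.55% and 8.97% of all genes, and C/EBP type letters in 0 members, against 2.38%. Of the 8 members with NF-kB type letters, 5 were tested. Their log2 differences, TMA minus TDA, were 1.19 for Nfkbia, 0.44 for Nfkbie, 0.17 for Il6, 0.06 for Tnfaip3 and -0.14 for Tnip1, and 1 of the 5, Nfkbia, passed the test described below. Over all tested probes 1.53% passed as higher and 1.49% as lower, and a link of letters to differences was not tested.

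Values below are log2 intensities after background correction and normalization between arrays, and the offset of 50 used in the correction makes the differences of dim genes too small. A gene was tested when its probe, the one with the highest raw mean, exceeded 7.01 in its mean over all 6 arrays, the median of all probes. The mean raw intensity per probe was 615 to 635 on the TMA arrays and 560 to 845 on the TDA arrays, the highest on TDA1. The epithelial markers Cdh1, Krt8 and Krt18 averaged 11.28, 13.49 and 13.24 on TMA arrays and 10.81, 13.26 and 12.95 on TDA arrays, while Epcam had no probe named for it. Of 6 tested epithelial markers 0 passed in limma, and 3, Cdh1, Cldn3 and Cldn4, were higher and 0 lower at an unadjusted p under 0.05. Over all tested probes 9.6% were higher and 8.92% lower at that level. The epithelial marker Krt19 was below the filter. Of 10 leukocyte markers, 7 had a probe and 2 were bright enough to test. The defining markers Ptprc, Lyz2 and Itgam were below the filter and Cd68 had no probe named for it. No raw signal was at 0, the lowest on any array being 148. The median raw signal of all probes was 280.5 to 287 on TMA arrays and 270.6 to 309.6 on TDA arrays. Whether the marker sums exceed background was not tested. The raw signals of these 7 markers summed to between 10124 and 22749 on TMA arrays and between 18832 and 33623 on TDA arrays. Without Cd14, a receptor for bacterial lipids that supplied most of this, the sums were 1521 to 1692 on TMA arrays and 1554 to 1746 on TDA arrays. Of 10 fibroblast markers, all with a probe, 2 were bright enough to test, and the 10 signals summed to 2609 to 2697 on TMA arrays and 2608 to 2856 on TDA arrays. The part of these marker levels in the results was not tested. In such bulk RNA, fewer cells that express a gene and less RNA per cell cannot be told apart.

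Nfkbia was the 1 gene of the set to pass the test. Of 27 tested members, 1 rose on the TMA arrays and 0 fell at a limma adjusted p under 0.05, where 1.53% of all 12848 tested probes rose and 1.49% fell. At an unadjusted p under 0.05 the counts were 6 higher and 1 lower, against 9.6% and 8.92% of tested probes. The differences ran from -1.14 for Lif to 1.19 for Nfkbia, with a median of 0.06, against -0.004 over all tested probes. The median moved most without TMA2, to 0.26, and it was -0.04 without TMA1 and 0.20 without TDA2. Every TMA array lay above every TDA array in 8 of 27 tested members, 29.6% against 11.9% of tested probes, and every TMA array lay below every TDA array in 1, against 11.1%. Among all 35 members with a probe the first count stayed at 8, 22.9% against 8.29% of all 25697 probes.

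**Figure D1:**
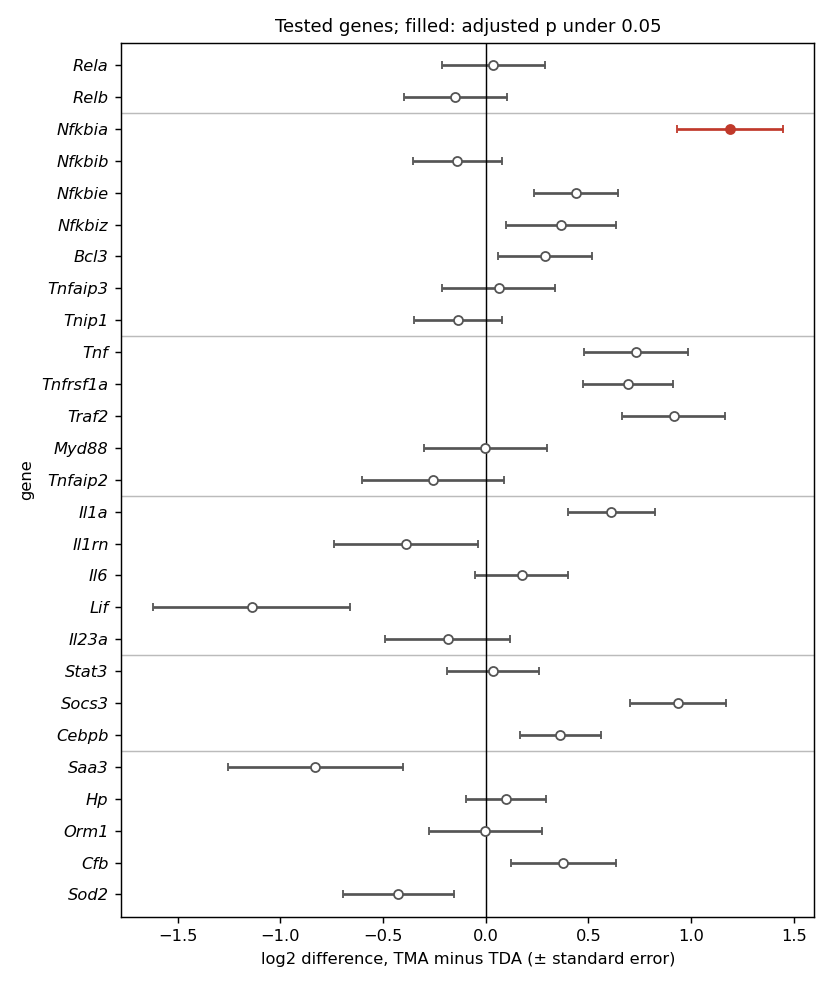
Log2 differences, TMA minus TDA, of the 27 tested genes on the x axis with their standard errors as bars, grouped by role from NF-kB subunits at the top to acute phase genes at the bottom, filled where the limma adjusted p was under 0.05. Nfkbia, at 1.19, is the 1 filled point, and Lif, at -1.14, has the widest error bar.

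Neither tested subunit gene passed the test. Rela, the main activating subunit of the classical pathway, measured 11.09, 11.01 and 10.36 on TMA1, TMA2 and TMA3, against 10.76, 11.12 and 10.47 on TDA1, TDA2 and TDA3. The groups overlapped, with a difference of 0.04 and a standard error of 0.25 (adjusted p = 0.959). Relb, the activating subunit of the alternative pathway, measured 8.68, 8.52 and 8.61 on the TMA arrays, against 8.53, 9.33 and 8.40 on the TDA arrays. Its highest value was on TDA2 and the others lay close together, for a difference of -0.15 (adjusted p = 0.825). Nfkb2, which encodes the partner of Relb, and Rel were below the filter, and without a filter they differed by 0.09 and -0.48 with overlapping groups. Nfkb1 had no probe named for it and was not analysed here.

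Nfkbia, the gene of the inhibitor IkB-alpha and a classical target of the factor it holds back, rose about 2.28-fold. It lies on GRCm38 chr12:55489409-55492647, and its 1 probe measured 11.41, 11.37 and 11.89 on TMA1, TMA2 and TMA3, against 10.34, 9.92 and 10.84 on TDA1, TDA2 and TDA3. All 3 TMA values lay above all 3 TDA values, and the lowest was that of TDA2. The means were 11.56 ± 0.29 on TMA arrays and 10.37 ± 0.46 on TDA arrays (SD, n = 3 each), so that TMA exceeded TDA by 1.19 ± 0.26 (standard error, limma adjusted p = 0.0330). In raw intensity the same probe read 2827, 2644 and 3985 for TMA, against 2166, 1004 and 1519 for TDA. The call was lost in limma without TMA2, TMA3 or TDA1, with adjusted p of 0.107, 0.182 and 0.137, and without background correction, with median scaling and in the authors' table, with adjusted p of 0.0572, 0.0869 and 0.0654. The difference stayed between 0.965 and 1.43 throughout.

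The other inhibitor and feedback genes did not pass. Nfkbie, the gene of IkB-epsilon, measured 8.61, 8.67 and 8.46 on the TMA arrays, against 8.11, 7.90 and 8.42 on the TDA arrays. These groups did not overlap, by the narrow gap between TMA3 and TDA3, and the difference was 0.44 (adjusted p = 0.279), while another Nfkbie probe differed by 0.16 (adjusted p = 0.768). Nfkbiz, a nuclear IkB protein that helps NF-kB to switch on secondary response genes, measured 11.95, 11.85 and 12.13 on the TMA arrays, against 11.71, 11.00 and 12.12 on the TDA arrays. TDA2 again held the lowest value, and the difference was 0.37 (adjusted p = 0.524), 0.06 without TDA2 and 0.62 without TDA3. Nfkbib, the gene of IkB-beta, measured 7.83, 7.33 and 7.23 on the TMA arrays, against 7.63, 7.74 and 7.45 on the TDA arrays, a difference of -0.14 within the spread (adjusted p = 0.806) that ran from -0.32 without TMA1 to -0.02 without TMA3.

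Bcl3, a nuclear IkB protein that acts with NF-kB dimers, and the genes of the ubiquitin-editing brake Tnfaip3 and its binding partner Tnip1 had their groups mixed. Bcl3 measured 8.43, 8.14 and 8.42 on the TMA arrays, against 7.67, 8.44 and 8.02 on the TDA arrays, and differed by 0.29 (adjusted p = 0.572), by 0.10 without TDA1 and by 0.49 without TDA2. Tnfaip3 measured 8.90, 8.08 and 8.43 on the TMA arrays, against 8.43, 8.85 and 7.95 on the TDA arrays, and differed by 0.06 (adjusted p = 0.936). Tnip1 measured 10.28, 9.95 and 10.13 on the TMA arrays, against 10.09, 10.58 and 10.10 on the TDA arrays, and differed by -0.14 (adjusted p = 0.806). In each of these 3 genes TDA2 was the highest of the TDA arrays. The other tested Tnip1 probes gave 0.07 and 0.21, opposite in sign to the chosen probe.

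**Figure D2:**
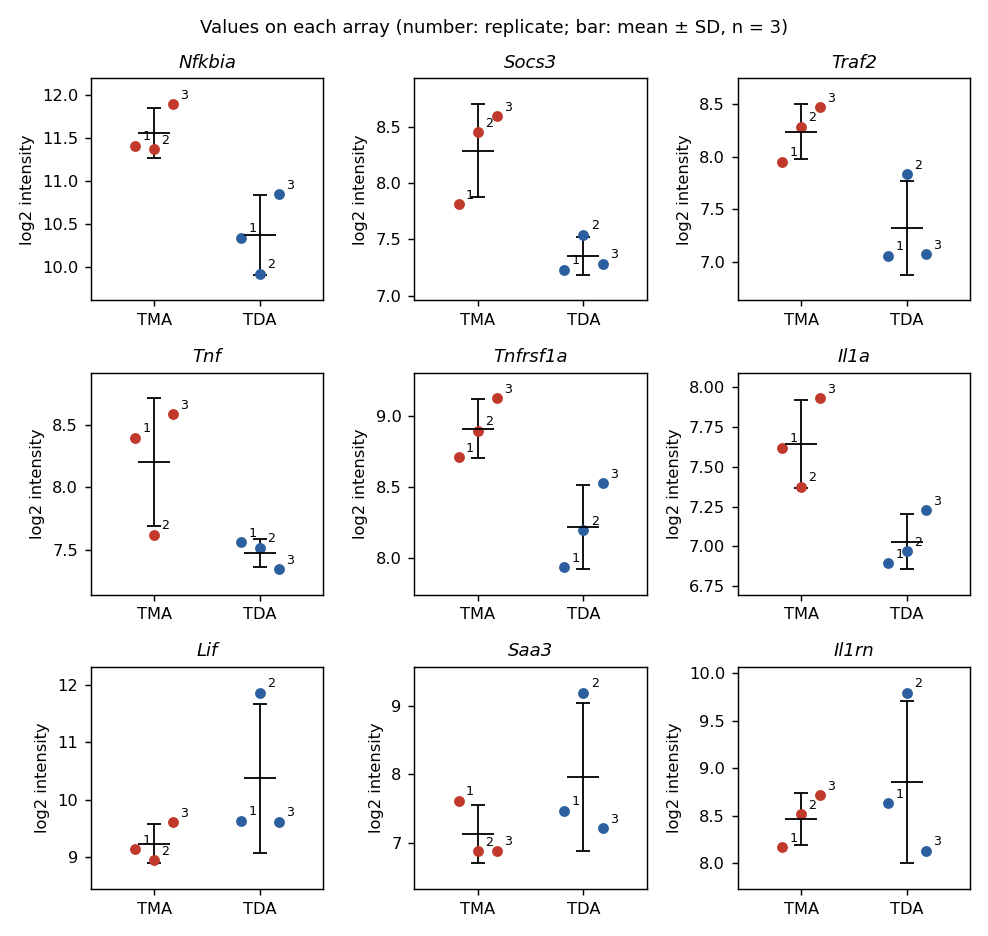
Log2 intensity (y axis) of 9 genes on each TMA and TDA array (x axis), with the replicate number beside each point and the mean ± SD of 3 arrays as a bar. In the upper 6 panels every TMA array lies above every TDA array, while Lif, Saa3 and Il1rn are highest on TDA2.

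Of the TNF and adaptor genes, 3 of 5 tested members, and 3 of 8 with a probe, had all TMA arrays above all TDA arrays, where 11.9% of tested probes and 8.29% of all probes did. In limma 0 of the 5 passed the adjusted threshold, and 3 were higher at an unadjusted p under 0.05, against 9.6% of tested probes. Traf2, an adaptor and ubiquitin ligase recruited to TNF receptors, measured 7.95, 8.29 and 8.47 on TMA1, TMA2 and TMA3, against 7.06, 7.84 and 7.07 on TDA1, TDA2 and TDA3. The groups did not overlap, though TDA2 came close to TMA1. It differed by 0.92 ± 0.25 (standard error, adjusted p = 0.0702), and it was 1.17 without TDA2, where it passed (adjusted p = 0.00732). It was 0.55 in the authors' table and 0.54 with uncorrected background.

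Tnf itself measured 8.40, 7.62 and 8.59 on the TMA arrays, against 7.56, 7.52 and 7.34 on the TDA arrays. TMA2 lay close to the TDA arrays and the other TMA arrays well above them, for a difference of 0.73 ± 0.25 (standard error, adjusted p = 0.139). This difference was 0.455 both in the authors' table and with uncorrected background. Tnfrsf1a, the TNF receptor present on most cells, measured 8.71, 8.89 and 9.12 on the TMA arrays, against 7.93, 8.20 and 8.52 on the TDA arrays. Its groups did not overlap, with a difference of 0.69 ± 0.22 (adjusted p = 0.111), and its other probes gave 0.64 and 0.59 (adjusted p of 0.132 and 0.182).

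Myd88, the adaptor of interleukin-1 and Toll-like receptors, measured 9.69, 9.58 and 9.35 on the TMA arrays, against 9.45, 10.27 and 8.90 on the TDA arrays. The TDA arrays enclosed all TMA values, and the difference was -0.002 (adjusted p = 0.999). Tnfaip2, a TNF-inducible gene, had values from 9.17 to 10.73 on TMA arrays and from 9.71 to 10.50 on TDA arrays, a difference of -0.26 (adjusted p = 0.767). Its other probes gave -0.05 and -0.32. Tnfrsf1b, Traf1 and Birc3 were below the filter, with differences of 0.12, 0.07 and -0.27 and overlapping groups, and Traf3 and Ripk2 had no probe named for them and were not analysed here.

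Of the cytokine genes, 0 of 5 tested members passed in limma, with 1 higher, Il1a, and 1 lower, Lif, at an unadjusted p under 0.05. Over all tested probes 9.6% were higher and 8.92% lower at that level. Il1a, whose product is an alarm cytokine of epithelial cells, measured 7.62, 7.38 and 7.93 on the TMA arrays, against 6.89, 6.97 and 7.23 on the TDA arrays. The groups did not overlap, the signal was dim, and the difference was 0.61 ± 0.21 (standard error, adjusted p = 0.142), or 0.33 in the authors' table and 0.32 with uncorrected background. Il1rn, the gene of the antagonist that blocks the interleukin-1 receptor, measured 8.17, 8.52 and 8.71 on the TMA arrays, against 8.63, 9.80 and 8.13 on the TDA arrays. TDA2 stood above all others, and the difference was -0.39 with all arrays (adjusted p = 0.625) and 0.08 without TDA2.

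Lif, the interleukin-6 family cytokine, had the largest negative difference of the set. It measured 9.13, 8.95 and 9.61 on TMA1, TMA2 and TMA3, against 9.63, 11.87 and 9.61 on TDA1, TDA2 and TDA3. The groups did not overlap, but TMA3, TDA1 and TDA3 lay close together, and TDA2 was 2.24 above the mean of the other TDA arrays. The difference was -1.14 ± 0.48 (standard error, adjusted p = 0.224), and -0.39 without TDA2 (adjusted p = 0.396). A second tested Lif probe gave -0.70 (adjusted p = 0.380). Il23a, a subunit of interleukin-23, measured 8.81, 8.21 and 8.09 on the TMA arrays, against 8.20, 9.27 and 8.20 on the TDA arrays, again highest on TDA2, with a difference of -0.19 (adjusted p = 0.817). Il6 differed by 0.17 near the lower bound of what was tested (adjusted p = 0.755), and Il1b and the prostaglandin synthase gene Ptgs2 were below the filter.

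In the interleukin-6 axis, Socs3 came nearest to the threshold. This STAT-induced inhibitor of cytokine receptors measured 7.82, 8.45 and 8.60 on the TMA arrays, against 7.23, 7.54 and 7.28 on the TDA arrays. All TMA values lay above all TDA values, with TMA1 closest to TDA2, and the difference was 0.94 ± 0.24 (standard error, adjusted p = 0.0548). It passed in limma without TMA1 and without TDA2, with adjusted p of 0.0155 and 0.0267, and failed with any of the other 4 arrays left out, with adjusted p up to 0.249. It was 0.57 both in the authors' table and with uncorrected background. Stat3 itself measured 11.53, 11.39 and 11.58 on the TMA arrays, against 11.61, 11.04 and 11.74 on the TDA arrays, a difference of 0.04 (adjusted p = 0.952). The groups overlapped, with TDA2 lowest. The other tested Stat3 probes gave 0.04 and -0.21.

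Cebpb, the gene of a C/EBP factor active in acute phase responses, measured 14.03, 14.01 and 14.20 on the TMA arrays, against 13.60, 13.63 and 13.93 on the TDA arrays. The groups did not overlap, and the difference was 0.36 ± 0.20 (standard error, adjusted p = 0.361). Cebpd had no probe named for it and was not analysed here.

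Of the acute phase genes and Sod2, limma called 0 of 5 tested members, and an unadjusted p under 0.05 was reached by 0. Saa3, the serum amyloid A gene made outside the liver in mice, measured 7.62, 6.88 and 6.88 on the TMA arrays, against 7.47, 9.20 and 7.21 on the TDA arrays. TDA2 alone was high, 1.86 above the mean of TDA1 and TDA3, and the difference was -0.83 ± 0.43 with all arrays (standard error, adjusted p = 0.330) and -0.21 without TDA2. In the authors' table and with uncorrected background it was -0.51. Sod2, the mitochondrial superoxide dismutase and a known NF-kB target, measured 12.51, 11.82 and 12.11 on the TMA arrays, against 12.22, 13.13 and 12.37 on the TDA arrays. It too was highest on TDA2, with a difference of -0.43 (adjusted p = 0.450), of -0.15 without that array and of -0.26 without TMA2.

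Cfb, complement factor B, measured 7.54, 7.23 and 6.90 on the TMA arrays, against 7.07, 6.36 and 7.11 on the TDA arrays, with TDA2 lowest and a difference of 0.38 (adjusted p = 0.479). The difference was 0.14 without TDA2, 0.22 without TMA1 and 0.17 in the authors' table. Hp, the haemoglobin-binding haptoglobin, and Orm1, an acid glycoprotein of plasma, gave differences of 0.10 (adjusted p = 0.851) and -0.002 (adjusted p = 0.999). For Hp it was 0.007 without TDA1 and 0.19 without TDA2. Saa1 was below the filter, and C3 had no probe named for it and was not analysed here.

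TDA2 stood apart from TDA1 and TDA3 in part of the set. After the values were seen, the members whose highest or lowest value of all 6 lay on TDA2 were counted. TDA2 was highest in 11 of 27 tested members, 40.7% against 21.8% of tested probes, and in 11 of all 35 members with a probe, 31.4% against 19.9% of all probes. The 11 were Rela, Relb, Bcl3, Tnip1, Myd88, Il1rn, Lif, Il23a, Saa3, Orm1 and Sod2. It was lowest in 5, namely Nfkbia, Nfkbie, Nfkbiz, Stat3 and Cfb, against 21.7% of tested probes. In the 5 other pathway lists given below, TDA2 was highest less often than over all tested probes. This held 2 of 18 tested receptor and adaptor genes and 2 of 22 kinase and ubiquitin enzyme genes. Among 15 other NF-kB targets, 8 further acute phase and complement genes and 9 interleukin-6 family genes the count was 0 each. Among all genes with a probe, the counts in these 5 lists were 2 of 19, 2 of 23, 2 of 20, 3 of 19 and 0 of 16. These were 10.5%, 8.7%, 10%, 15.8% and 0%, against 19.9% of all probes. The mean of the 27 tested members was 9.21, 8.97 and 9.20 on TMA1, TMA2 and TMA3, against 8.84, 9.26 and 8.87 on TDA1, TDA2 and TDA3, so TDA2 was the highest of all 6 and the remaining TDA arrays the lowest. Over all tested probes, TDA2 correlated with TDA1 and TDA3 at r = 0.947 and 0.928, against 0.974 between TDA1 and TDA3. TMA1 correlated with TMA2 and TMA3 at 0.949 and 0.961, against 0.969 between TMA2 and TMA3, and with TDA1 at 0.959. Without TDA2, limma called 3 members higher, Nfkbia, Socs3 and Traf2, and 0 lower, and 5.12% of all tested probes in either direction. Without TMA1 it called 2 higher, Nfkbia and Socs3, and 0 lower, and 5.31% of all tested probes.

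**Figure D3:**
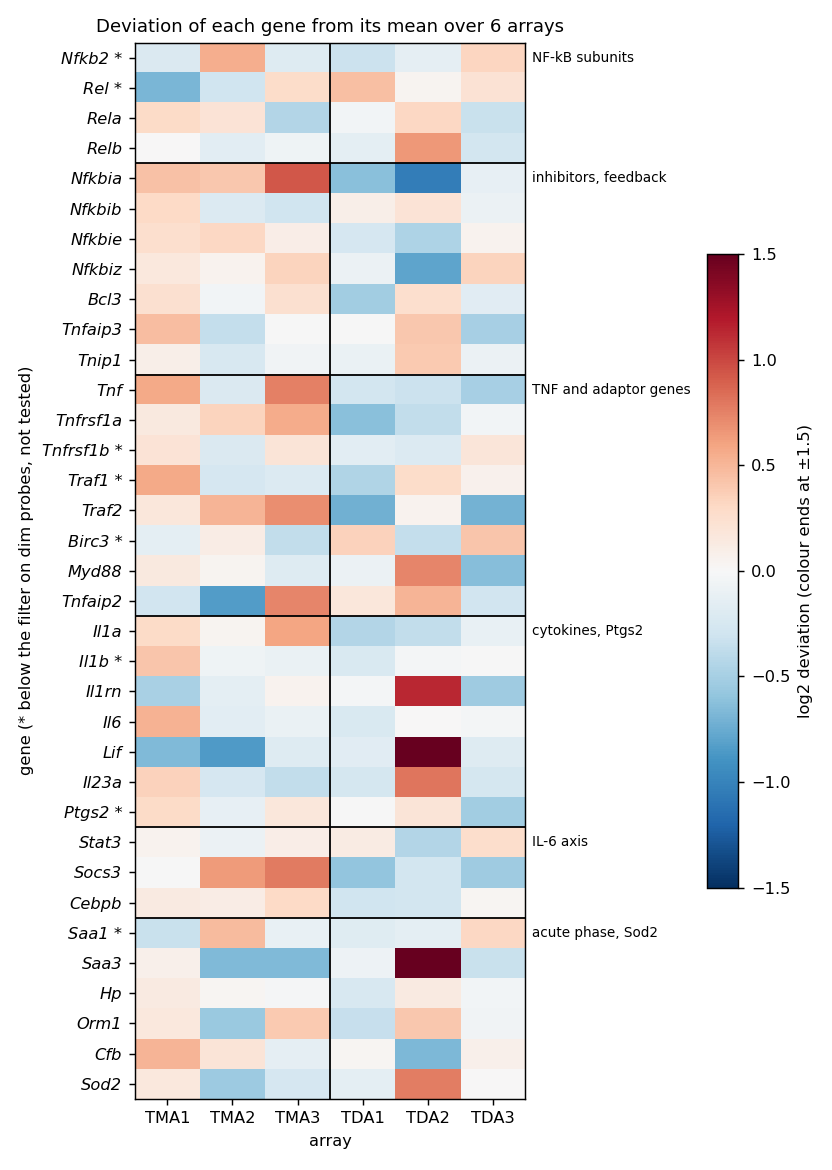
Each row is 1 of the 35 genes with a probe and each column an array. Colour gives the log2 deviation from that gene's mean over the 6 arrays, red above and blue below, and an asterisk marks the 8 genes below the filter. TDA2 has dark red cells for Lif, Saa3 and Il1rn and a clearly blue one for Nfkbiz, unlike TDA1 and TDA3. For Nfkbia every TDA array lies below the mean, TDA2 the furthest.

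Other genes of the pathway, from lists that overlap none of the 40, passed the test in 3 of 72 tested cases, all higher on the TMA arrays, which is 4.17% against 1.53% of all tested probes. With 1 probe per gene, 154 of all 8961 tested genes passed as higher and 154 as lower. The lists were chosen with earlier results of these data known, and an excess was not tested. Of 18 tested receptor and adaptor genes 1 rose and 0 fell. It was Tnfrsf21, a death-domain receptor of the TNF receptor family, at 9.57, 10.84 and 10.54 on the TMA arrays, against 8.54, 8.75 and 8.36 on the TDA arrays. The gap between the groups was wider than the range of the TDA arrays, with a difference of 1.77 ± 0.29 (standard error, adjusted p = 0.0125). Of 22 tested kinase and ubiquitin enzyme genes 1 rose and 0 fell. It was Map3k8, a kinase that links NF-kB signals to ERK, at 8.21, 8.63 and 8.70 on the TMA arrays, against 7.68, 7.59 and 7.52 on the TDA arrays, a difference of 0.92 ± 0.21 (standard error, adjusted p = 0.0383). The Map3k8 difference was 0.58 in the authors' table and 0.59 with uncorrected background, with adjusted p of 0.0628 and 0.0597.

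Of 8 tested acute phase and complement genes outside the set 1 rose and 0 fell. This was Lbp, which encodes the binding protein for bacterial lipopolysaccharide, at 9.22, 10.06 and 10.16 on the TMA arrays, against 8.42, 7.85 and 8.70 on the TDA arrays. Its groups did not overlap, and the difference was 1.49 ± 0.29 (standard error, adjusted p = 0.0219). Lcn2, another acute phase gene, was at or near the ceiling of every array, with raw signals of 69640 to 71751 on TMA arrays and 69616 to 70509 on TDA arrays, where a difference may not be visible. It was chosen after its values were seen. The differences of Tnfrsf21, Map3k8 and Lbp stayed above 0 in all 17 alternatives, some of which cannot move a difference, but their calls were lost in 4, 7 and 5 of them. In limma without TMA2 the adjusted p was 0.0675 for Tnfrsf21, 0.163 for Map3k8 and 0.124 for Lbp. Without TMA3 it was 0.0909, 0.185 and 0.140 for the same genes, and without TDA1 it was 0.0722, 0.130 and 0.1000. Without TDA3 it was 0.0935 for Map3k8.

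Of 15 other NF-kB target genes and 9 receptor and JAK-STAT genes of the interleukin-6 family, 0 passed in limma in either direction, with 4 higher and 1 lower, and 3 higher and 0 lower, at an unadjusted p under 0.05, where 9.6% of tested probes were higher and 8.92% lower. The colony-stimulating factor genes Csf2 and Csf1 differed by 1.45 and 0.90 (adjusted p of 0.0584 and 0.0605), with all TMA arrays above all TDA arrays in both. Csf3, the gene of a further colony-stimulating factor, was the 1 lower, and it is named here after its values were seen. It averaged 10.40 ± 0.88 on TMA arrays and 11.50 ± 0.20 on TDA arrays (SD, n = 3 each), with all TMA arrays below all TDA arrays and a difference of -1.11 (adjusted p = 0.111 in limma). Csf2 measured 8.97, 9.25 and 9.98 on the TMA arrays, against 7.85, 8.84 and 7.17 on the TDA arrays. The receptor gene Osmr and the STAT inhibitor gene Pias3 gave differences of 0.78 (adjusted p = 0.0961) and 0.53 (adjusted p = 0.168). In this last list the TMA arrays all lay above the TDA arrays for 6 of 9 tested genes, against 11.9% of tested probes. Among its 16 genes with a probe the count stayed at 6, 37.5% against 8.29% of all probes. In the other lists it was 4 of 18 tested receptor and adaptor genes and 4 of 22 kinase and ubiquitin enzyme genes. For the other NF-kB targets it was 3 of 15, and for the further acute phase and complement genes 2 of 8. These 4 counts were 22.2%, 18.2%, 20% and 25%, against 11.9% of tested probes. Among all genes with a probe they were 4 of 19, 4 of 23, 3 of 20 and 2 of 19. That is 21.1%, 17.4%, 15% and 10.5%, against 8.29% of all probes.

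Nfkbia, Socs3, Traf2, Tnf, Tnfrsf1a, Il1a, Lif and Saa3 kept the sign of their difference under all alternatives tried, while the calls did not hold. The filters, the replicate block and the trend and robust prior cannot move a difference. Nor can another choice of probe where a gene has 1 probe, so the sign under these alternatives was fixed in advance. Nfkbia had an adjusted p under 0.05 in 11 of 17 alternatives, Socs3 in 5 of 16 and Traf2 in 2 of 16, and Tnf, Tnfrsf1a and Il1a each in 1, with array quality weights, which called 14.8% of all probes. Lif and Saa3 passed in 0 of 17 and 0 of 16.

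**Figure D4:**
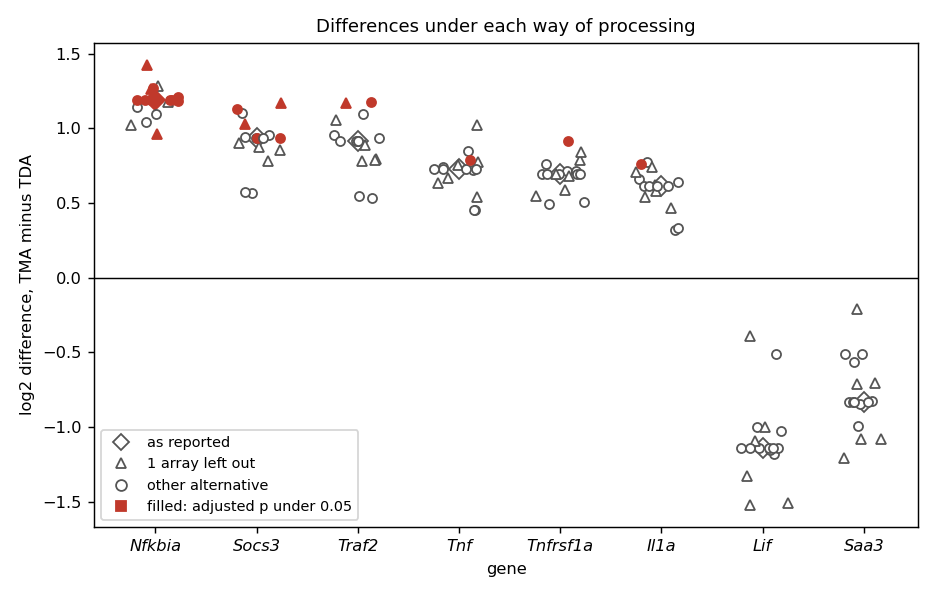
Log2 differences, TMA minus TDA (y axis), of 8 genes (x axis) as reported (diamonds), with 1 array left out (triangles) and under the other alternatives (circles), filled where the adjusted p was under 0.05. Nfkbia stays between 0.965 and 1.43, and the Lif value nearest to 0, -0.39, is that without TDA2.

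The tested genes whose log2 values over the 6 arrays ran most like those of Nfkbia, out of 8960 others, were Rab3d, Ndrg3, Wdr61, Sftpd and Palld, with Pearson correlations of 0.994, 0.988, 0.987, 0.987 and 0.985. These are a description of 6 arrays that share a chip and fall into 2 groups.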

How the data were processed

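Per the labels' protocols, RNA was extracted with Trizol and labelled in the standard Illumina way. One deposited table holds raw signal intensity for each probe. Another holds the authors' log2 values, whose array medians are nearly equal, and how they were normalized is not given in the sources used here. For the present work, intensities were corrected with normexp (offset 50), converted to log2, quantile normalized and fitted with limma 3.58.1 (lmFit, eBayes, two-sided, Benjamini-Hochberg over 12848 probes, threshold 0.05) under R 4.3.3. Figures used Python 3.11.15 and matplotlib 3.10.9. Residual degrees of freedom were 4, and the median standard error was 0.221. Of 25697 probes, 23846 had a gene symbol, and 0 symbols needed an update. Since the tables used hold no detection p-values, detection was not judged, and the number of arrays limits precision. The procedure was tested on simulated data. The members, lists and tests were chosen with earlier results of these data known. Values on all arrays were due for members past the threshold, the 12 with the largest absolute difference and the tested subunit and inhibitor genes, and were added for some others. Of the other lists, genes past the threshold were named, or else the 2 with the smallest p. Alternatives were other background corrections, normalizations, filters, probes and variance models, the authors' table, a replicate block and each array left out.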

Additional observations from a re-analysis of the deposited data

How the results depend on the processing

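Of 27 tested members, 16 kept the sign of their difference in every alternative that tested them, and 11 did not. Among these alternatives, the filters, the replicate block and the trend and robust prior cannot move a difference. Nor can another choice of probe where a gene has 1 probe. The count of members past the threshold, 1 as reported, was 0 in the authors' table, with median scaling and with uncorrected background, 2 with the replicate block and with the trend and robust prior, 6 with array quality weights and 0 to 3 with 1 array left out. The count of probes, 387, was 135 in the authors' table, 129 with median scaling, 198 with uncorrected background, 232 with the stricter filter (75th percentile), which left 17 members, 1906 with array quality weights and 3 to 682 with 1 array left out: 682, 21 and 3 without TMA1, TMA2 and TMA3 and 8, 658 and 112 without TDA1, TDA2 and TDA3. The median of the members ranged from -0.042 to 0.257 with 1 array left out. Signs changed for Orm1 (0.005 without background correction, 0.054 with median scaling, 0.068 with cyclic loess, 0.023 in the authors' table, 0.319 with array quality weights), Myd88 (0.003 with an offset of 16, 0.041 with weights), Stat3 (-0.049 with median scaling, -0.060 in the authors' table, -0.056 with weights), Rela (-0.010 in the authors' table, -0.071 with weights), Relb (0.017 with weights) and Tnfaip2 (0.005 with weights). With 1 array left out the ranges were -0.198 to 0.274 for Orm1, -0.325 to 0.364 for Myd88, -0.176 to 0.177 for Stat3, -0.120 to 0.267 for Rela, -0.323 to 0.139 for Relb, -0.686 to 0.095 for Tnfaip2, -0.169 to 0.281 for Tnfaip3, -0.042 to 0.299 for Il6, -0.219 to 0.026 for Tnip1, -0.749 to 0.084 for Il1rn and -0.406 to 0.171 for Il23a. The cause was not tested. Deviations of same-numbered arrays correlated at 0.126, 0.013 and 0.027, so the numbers were not taken as pairs; TMA2 correlated best with TDA3, and the block moved the probe count to 518. Dim genes such as Il6, Cfb and Hp lie near the median of all probes, where a difference may not be detectable.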
